A study of Homo sapiens with 96 samples.

Results

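The dicarboximide fungicides Procymidone, Vinclozolin and Iprodione were each tested in LAPC4 cells, a human prostate cancer line that responds to androgen. Their arrays were taken by title: 9 of the 96 arrays of the series, 3 for each compound, and 3 of the 28 chemicals of the series. The cells had been grown for 48 h in medium with 5% fetal bovine serum and were then exposed for 6 h. Procymidone, Vinclozolin and Iprodione were given at 20 µM together with 0.33 nM R1881, a synthetic androgen that binds the androgen receptor. Bicalutamide, a drug that blocks this receptor, was given at the same dose with the same R1881 and has 3 arrays. The 6 R1881 arrays hold cells given 0.33 nM R1881 alone, and the 6 DMSO arrays hold cells given 0.05% DMSO, the solvent, without androgen. All results thus concern a single cell line, a single dose and a single time, and none of the arrays analysed here holds a dicarboximide without R1881.

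The androgen receptor is a transcription factor that enters the nucleus when it binds androgen and switches on genes of secretion, metabolism and growth in the prostate. Antiandrogens occupy the receptor without switching these genes on. The dicarboximides are fungicides in which a dichlorophenyl ring is carried on the nitrogen of a cyclic imide. The ring is an oxazolidinedione in Vinclozolin, a pyrrolidinedione fused to a cyclopropane in Procymidone and an imidazolidinedione with an isopropylcarbamoyl side chain in Iprodione. Vinclozolin, through its metabolites, and Procymidone are known as antagonists of the androgen receptor in rats.

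Values are the authors' log2 signals on Illumina HT-12 version 4 arrays, and a difference is the chemical's mean minus that of the group it is set against. The brightest probe stood for each of 18571 genes, and the number of arrays limits the precision. The study ran its triplicates on separate days, and whether control arrays 1b to 3b came from separate cultures is not settled, so the p-values measure the spread between these arrays, part of which may be technical. The luminal prostate epithelium markers averaged 8.87 to 9.36 per array, and 10 of the 15 measured lay above a log2 value of 8. The basal, neuroendocrine, stromal, leukocyte and endothelial lists averaged 6.58 to 7.36. Arrays of the whole series resembled either of 2 overall profiles, called cluster A (34 arrays) and cluster B (62 arrays). Cluster A held Procymidone 3, Vinclozolin 1 and 3, Iprodione 3, Bicalutamide 1 and 3, and the R1881 and DMSO arrays 3 and 3b. R1881 2 and Iprodione 1 were assigned to cluster B, although their centred values correlated negatively with its profile (-0.39 and -0.54). Differences within each cluster are therefore given for SGK1, FKBP5, ASNS, GARS1, SLC1A5 and MARS1. The counts of called genes are also given with the cluster as a block, a setting added after seeing the data. Called genes with the largest differences were named only where the arrays of the compared groups did not overlap. For these genes, the separation of arrays follows from that rule and is no separate evidence.

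Procymidone and Vinclozolin lowered a set of androgen-responsive genes that included the kinase SGK1, the chaperone partner FKBP5 and the prostate protease KLK2, whereas limma called no gene under Iprodione. Against R1881 alone and at a Benjamini-Hochberg adjusted p under 0.05, Procymidone raised 6 genes and lowered 49, which is 0.296% of all genes tested. Vinclozolin raised 8 and lowered 31, or 0.21%. Iprodione raised 0 and lowered 0, or 0%. Of the 18571 genes, 401 had an unadjusted p under 0.05 with Iprodione, fewer than chance alone would give. These 3 comparisons share the 6 R1881 arrays, so their values stand side by side and are no independent evidence of each other. With all 96 arrays in the fit the counts were 9 for Procymidone and 8 for Vinclozolin, and with the cluster as a block they were 179 for Procymidone, 108 for Vinclozolin and 1 for Iprodione. The genes called with all 96 arrays were SGK1, FKBP5, C1orf116, NPPC, DIO2, S100P and UGT2B11 under both compounds, HPGD and UGT2B28 under Procymidone and NDRG1 under Vinclozolin, so every other call named here against R1881 was lost in that fit. Without Procymidone 1 the count for Procymidone was 29, and without Vinclozolin 3 that for Vinclozolin was 22.

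**Figure D1:**
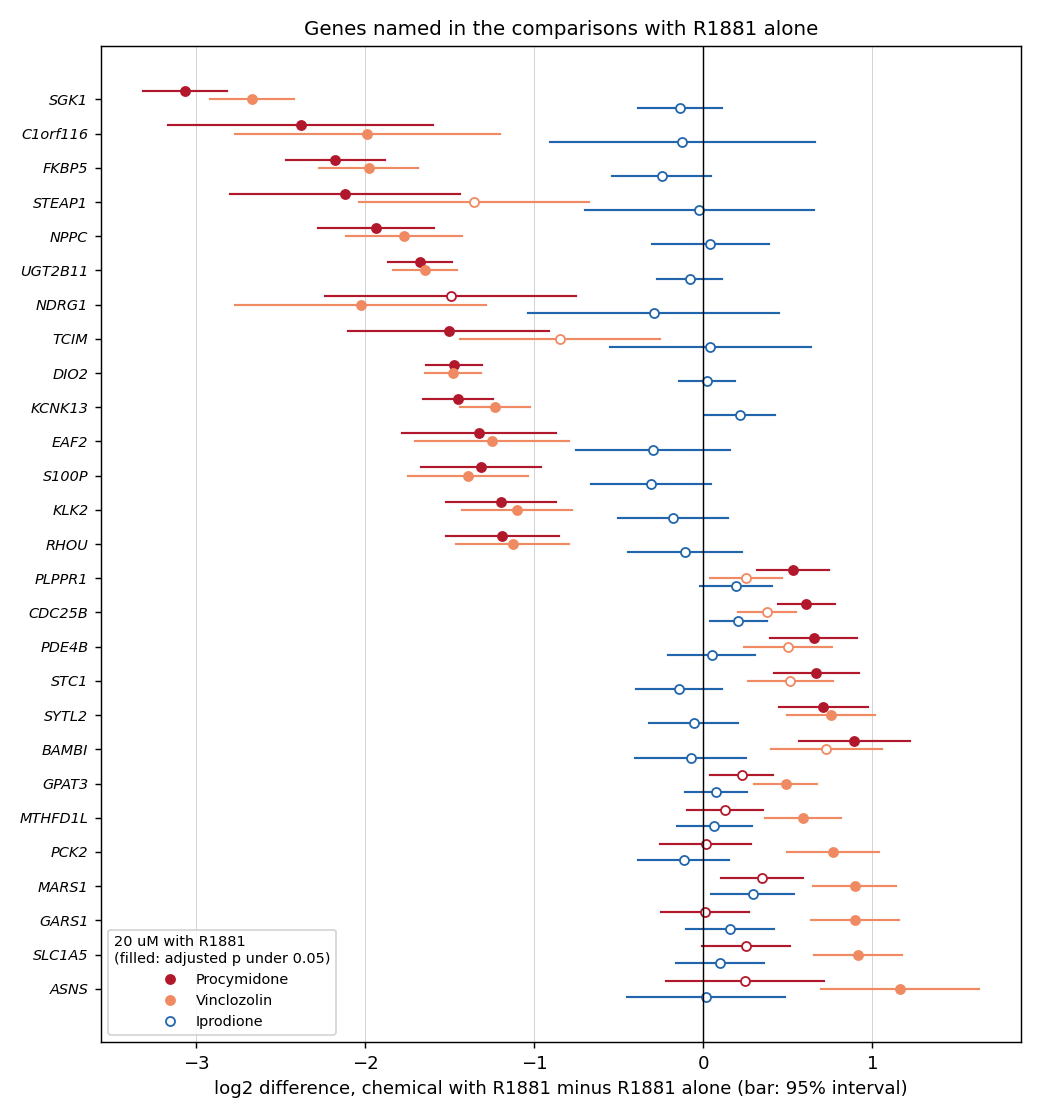
Log2 difference of each chemical with R1881 from R1881 alone (x axis) for 27 genes (y axis), with 95% intervals from limma over 3 arrays of the chemical and 6 of R1881. Filled points have an adjusted p under 0.05. Procymidone and Vinclozolin points lie left of 0 for the upper 14 genes, with SGK1 at -3.07 and -2.67, and every Iprodione point is open.

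SGK1, a kinase that controls ion channels and is induced by steroid hormones, showed the largest difference of all called genes under both Procymidone and Vinclozolin. It read 8.53, 8.73 and 8.88 with Procymidone, 9.39, 9.11 and 8.85 with Vinclozolin, and 11.59, 11.54 and 11.82 with Iprodione. The R1881 arrays ranged from 11.47 to 12.004 with a median of 11.83, and the DMSO arrays from 8.82 to 8.98 with a median of 8.93. The Procymidone and Vinclozolin arrays thus all lay below every R1881 array, while the Iprodione arrays lay among them. SGK1 fell by 3.07 on the log2 scale under Procymidone (SE 0.12, 8.39-fold lower, limma adjusted p = 2.28e-12) and by 2.67 under Vinclozolin (SE 0.12, 6.37-fold lower, adjusted p = 3.2e-11). Its difference under Iprodione was -0.14, with a 95% interval from -0.39 to 0.11 (adjusted p = 1.00). Within cluster A the SGK1 difference was -2.97 for Procymidone, -2.74 for Vinclozolin and -0.04 for Iprodione, and within cluster B it was -3.12, -2.64 and -0.19 in the same order.

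FKBP5, a partner of the chaperone HSP90 in steroid receptor complexes, was likewise low with Procymidone and Vinclozolin. It read 9.17, 9.11 and 9.02 with Procymidone, 9.18, 9.65 and 9.06 with Vinclozolin, and 11.22, 10.996 and 10.88 with Iprodione. The R1881 arrays lay between 10.95 and 11.62 with a median of 11.31, and the DMSO arrays between 9.29 and 9.46 with a median of 9.37. No Procymidone or Vinclozolin array overlapped the R1881 arrays, and the lowest Iprodione array was just below the lowest R1881 array. FKBP5 fell by 2.18 under Procymidone (SE 0.14, adjusted p = 7.65e-09) and by 1.98 under Vinclozolin (SE 0.14, adjusted p = 4.29e-08). Under Iprodione the difference was -0.25 (95% interval -0.54 to 0.05). Within cluster A the FKBP5 difference was -1.99 for Procymidone and -1.88 for Vinclozolin, and within cluster B it was -2.27 and -1.76.

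Among the prostate proteases, KLK2 (kallikrein 2, a secreted enzyme of seminal fluid) passed the test in the reported fit, whereas KLK3, KLK4 and TMPRSS2 did not. KLK2 read 7.10, 6.99 and 6.96 with Procymidone, 7.01, 7.35 and 6.98 with Vinclozolin, and 8.14, 8.20 and 7.77 with Iprodione, against 7.89 to 8.69 (median 8.19) in the R1881 arrays and 6.79 to 7.37 (median 6.90) in the DMSO arrays. All Procymidone and Vinclozolin arrays were below the R1881 arrays, and the differences were -1.20 (SE 0.16, adjusted p = 0.000332) and -1.10 (SE 0.16, adjusted p = 0.00101). TMPRSS2, a membrane serine protease, averaged 10.57 ± 0.18 with Procymidone, 10.59 ± 0.14 with Vinclozolin and 11.24 ± 0.25 with Iprodione, against 11.32 ± 0.28 with R1881 (SD, n = 3 each and 6 for R1881). Its differences of -0.75 under Procymidone and -0.73 under Vinclozolin missed the threshold with adjusted p = 0.0676 and 0.0945 in limma, and passed it without R1881 3b (0.0293 and 0.043) and with the cluster as a block (0.00917 and 0.0444). KLK4, a further kallikrein, differed by -1.03 under Procymidone (adjusted p = 0.068), -0.88 under Vinclozolin (0.204) and -0.53 under Iprodione (1.00), and passed under Procymidone with the cluster as a block (0.00437) and with cyclic loess (0.0218). KLK3, which encodes prostate-specific antigen, sat close to the lower end of the scale in all groups, at 6.70 with Procymidone, 6.79 with Vinclozolin, 6.92 with Iprodione, 6.83 with R1881 and 6.73 with DMSO. R1881 itself gave no detectable difference in KLK3 against DMSO (0.10, SE 0.07, adjusted p = 1.00).

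**Figure D2:**
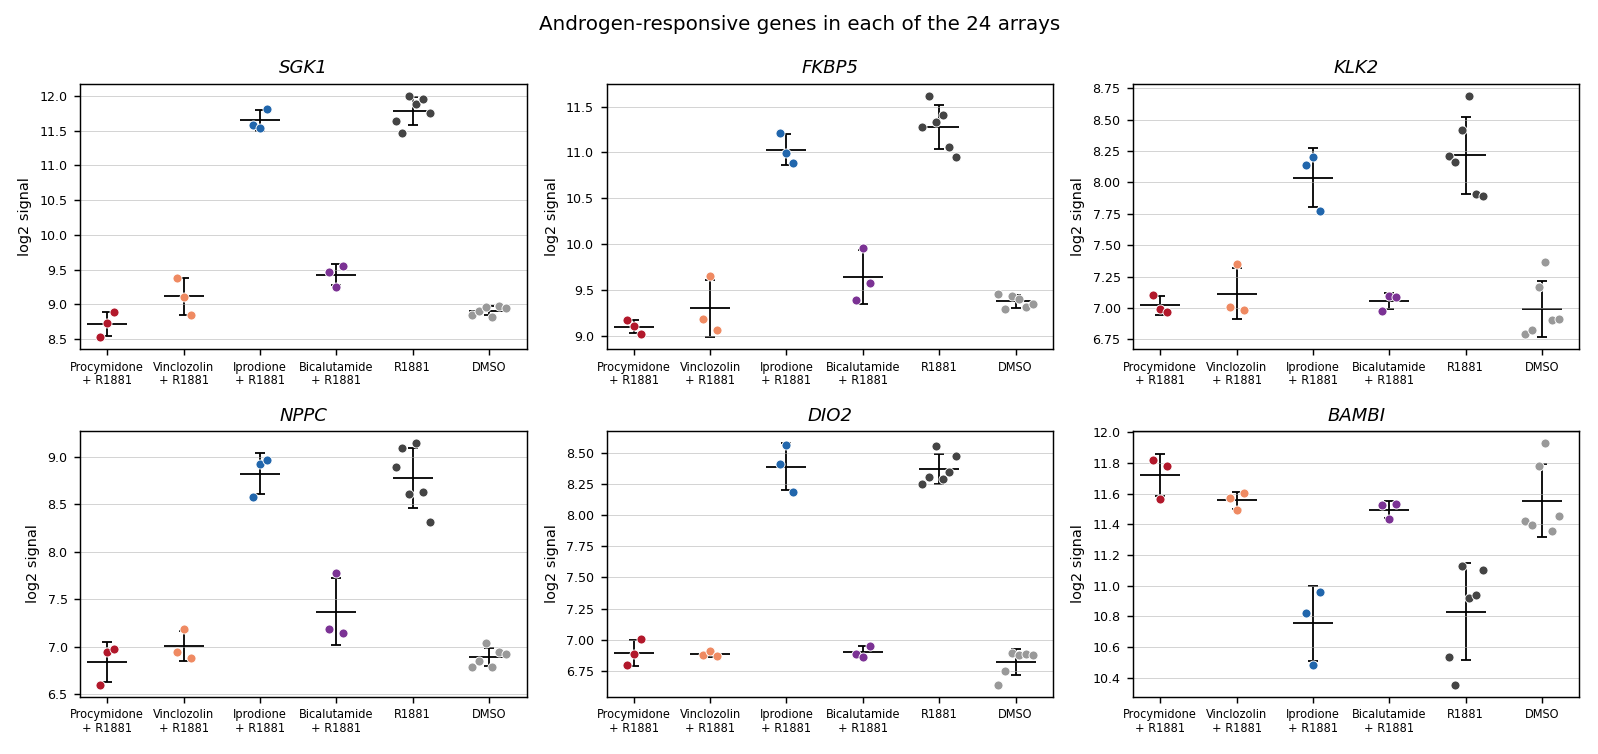
Log2 signal (y axis) of SGK1, FKBP5, KLK2, NPPC, DIO2 and BAMBI in each of the 24 arrays, by treatment (x axis), with the mean and SD in black (n = 3 for the chemicals and 6 for R1881 and DMSO). For the first 5 genes the Procymidone and Vinclozolin arrays lie near the DMSO arrays and the Iprodione arrays near the R1881 arrays. BAMBI runs the other way.

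NPPC, DIO2 and HPGD also fell under Procymidone and Vinclozolin. NPPC, from which C-type natriuretic peptide is cut, read 6.60, 6.94 and 6.98 with Procymidone, 6.95, 7.19 and 6.89 with Vinclozolin, and 8.57, 8.92 and 8.97 with Iprodione, against 8.32 to 9.14 (median 8.76) with R1881. The Procymidone and Vinclozolin arrays were all lower than any R1881 array, and NPPC fell by 1.94 and 1.77 (SE 0.16 each, adjusted p = 5.3e-07 and 2.51e-06). DIO2, the deiodinase that turns thyroxine into the active thyroid hormone, read 6.79, 6.89 and 7.003 with Procymidone, 6.88, 6.91 and 6.87 with Vinclozolin, and 8.41, 8.56 and 8.19 with Iprodione, against 8.25 to 8.56 (median 8.33) with R1881. The Procymidone and Vinclozolin arrays formed a tight low group, and DIO2 fell by 1.47 under Procymidone (SE 0.08, adjusted p = 4.42e-10) and by 1.48 under Vinclozolin (SE 0.08, adjusted p = 4.97e-10). HPGD, which breaks down prostaglandins, fell by 0.95 under Procymidone (adjusted p = 5.33e-08) and by 0.79 under Vinclozolin (adjusted p = 1.32e-06). The interval under Iprodione was -0.30 to 0.39 for NPPC and -0.15 to 0.18 for DIO2.

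UGT2B11 and UGT2B28, members of the enzyme family that attaches glucuronic acid to androgens, and the peptidase MME (neprilysin) also fell. UGT2B11 read 6.70, 6.94 and 6.77 with Procymidone, 6.95, 6.80 and 6.76 with Vinclozolin, and 8.24, 8.57 and 8.40 with Iprodione, against 8.19 to 8.61 (median 8.57) with R1881. The low arrays of UGT2B11 stood apart from every R1881 array, with differences of -1.68 under Procymidone and -1.65 under Vinclozolin (SE 0.09 each, adjusted p = 4.42e-10 and 6.3e-10). UGT2B28 fell by 0.84 and 0.77, and MME by 0.63 and 0.65, under Procymidone and Vinclozolin in that order. These 3 genes stood in a list of 20 genes collected under the name androgen-repressed, 18 of them measured. Of these, 0 rose and 3 fell under each of Procymidone and Vinclozolin, where 0.264% and 0.167% of all genes fell. The list name does not describe these 3 genes here, as R1881 raised UGT2B11 by 1.70, UGT2B28 by 0.81 and MME by 0.64 against DMSO. The UGT2B genes are near-identical copies, so their probes may read more than the gene they are named for. The 3 other MME probes, all dim, differed by -0.02, -0.04 and 0.09 under Procymidone. UGT2B28 under Vinclozolin lost its call without any 1 of the Vinclozolin arrays (adjusted p between 0.0641 and 0.105). CAMK2N1, an inhibitor of a calcium-dependent kinase, was the only gene of the list that R1881 lowered (-0.85), and it differed by 0.79 under Procymidone (adjusted p = 0.122) and 0.79 under Vinclozolin (adjusted p = 0.12), passing under both with the cluster as a block (0.000145 and 0.0024).

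STEAP1, STEAP2, KCNK13 and SLC45A3 are proteins of cell membranes, and none of them differed past the threshold between Procymidone and Vinclozolin. STEAP1, a six-transmembrane antigen of prostate epithelium, read 6.94, 7.34 and 7.75 with Procymidone, 8.56, 7.56 and 8.19 with Vinclozolin, and 9.42, 8.85 and 10.05 with Iprodione, against 8.64 to 10.15 (median 9.37) with R1881. All Procymidone and Vinclozolin arrays lay below the R1881 arrays. STEAP1 fell by 2.12 under Procymidone (SE 0.33, adjusted p = 0.0021), and its difference of -1.36 under Vinclozolin did not pass (adjusted p = 0.13). The metalloreductase STEAP2 had differences of -0.93 (adjusted p = 0.00159) and -0.63 (adjusted p = 0.0774) under the same compounds. KCNK13, a background potassium channel, fell by 1.45 and 1.23 (adjusted p = 1.94e-08 and 3.62e-07). SLC45A3, the prostate transporter also called prostein, fell by 0.85 under Vinclozolin (adjusted p = 0.0182), and its difference under Procymidone was -0.74 (adjusted p = 0.0581). The direct difference between Procymidone and Vinclozolin was -0.76 for STEAP1, with a 95% interval from -1.55 to 0.02. It was not adjusted for the cluster, and Vinclozolin had 2 arrays in cluster A against 1 for Procymidone. The 3 other, dimmer STEAP1 probes differed by -0.89, -0.10 and 0.02 under Procymidone. SLC45A3 lost its call under Vinclozolin without Vinclozolin 1 (adjusted p = 0.22) or Vinclozolin 3 (0.321). Under Vinclozolin, STEAP1 and STEAP2 passed without R1881 2b (adjusted p = 0.0414 for both). They also passed with the cluster as a block, at differences of -1.62 and -0.73 (adjusted p = 2.47e-06 and 5.1e-05). SLC45A3 passed under Procymidone without R1881 1b (0.0357) and with the cluster as a block (0.00989).

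C1orf116, known as the specifically androgen-regulated gene, fell by 2.38 under Procymidone (SE 0.38, adjusted p = 0.00276), and its difference under Vinclozolin was -1.99 (SE 0.38, adjusted p = 0.0189). Its Vinclozolin arrays were spread (8.44, 9.597 and 8.19, against 9.99 to 11.13 with R1881), with arrays 1 and 3 of cluster A below array 2 of cluster B. The Vinclozolin call of C1orf116 was lost without R1881 1 (adjusted p = 0.0516), R1881 2 (0.0506), Vinclozolin 1 (0.203) or Vinclozolin 3 (0.321). Under Procymidone and Vinclozolin in that order, falls were called for EAF2, a factor of transcript elongation (-1.33 and -1.25), for the calcium-binding protein S100P (-1.32 and -1.39) and for the small GTPase RHOU (-1.19 and -1.13). The transcription factors CEBPD and MAF fell by 0.80 and 0.64 under Procymidone and by 0.79 and 0.68 under Vinclozolin. KLF9, a transcription factor induced by glucocorticoids, fell by 0.93 under Procymidone (adjusted p = 0.00389), and differed by -0.59 under Vinclozolin (adjusted p = 0.198). PMEPA1, an inhibitor of TGF-beta signalling, fell by 1.02 under Procymidone (adjusted p = 0.00871), and differed by -0.81 under Vinclozolin (adjusted p = 0.0735), which passed without R1881 3b (0.043) or Vinclozolin 2 (0.0461). TCIM, a regulator of transcription, fell by 1.51 under Procymidone (adjusted p = 0.0161), a call lost without Procymidone 1 (0.138) or Procymidone 2 (0.153). Under Procymidone the calls of EAF2 (0.0505) and KLF9 (0.0838) were lost without Procymidone 1, that of MAF (0.10) without Procymidone 3, and that of PMEPA1 without Procymidone 1 (0.121) or 3 (0.0562). Under Vinclozolin that of EAF2 was lost without any 1 of the Vinclozolin arrays (0.0611 to 0.072) and that of MAF without Vinclozolin 3 (0.105).

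NDRG1, a stress-responsive protein induced by both androgen and low oxygen, had the second largest fall under Vinclozolin. It read 10.22, 10.15 and 9.12 with Procymidone, 9.08, 10.10 and 8.72 with Vinclozolin, and 11.14, 11.50 and 10.45 with Iprodione, against 10.88 to 11.87 (median 11.25) with R1881. Array 3, of cluster A, was the lowest in each of these 3 groups, and no Procymidone or Vinclozolin array reached the R1881 range. Vinclozolin 1, also of cluster A, lay below Vinclozolin 2 of cluster B. NDRG1 fell by 2.03 under Vinclozolin (SE 0.36, adjusted p = 0.00965), and differed by -1.49 under Procymidone (adjusted p = 0.122). The Vinclozolin call was lost without Vinclozolin 1 (adjusted p = 0.0962) or Vinclozolin 3 (0.203). Under Procymidone NDRG1 passed with the cluster as a block (0.000188) and with cyclic loess (0.0454). In the reported fit it was the only one of 21 measured hypoxia and glycolysis genes called under Vinclozolin, where 0.21% of all genes were called, and 0 were called under Procymidone, where 0.296% were.

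Over the list of 48 androgen-induced genes, 42 were measured. Under Procymidone 14 fell and 0 rose, where 0.264% of all genes fell, with a median difference of -0.61 and a range from -3.07 to 0.09. Under Vinclozolin 13 fell and 0 rose, where 0.167% of all genes fell, with a median of -0.45. Under Iprodione 0 fell and 0 rose, with a median of -0.07 and a range from -0.53 to 0.32. The median over all genes tested was 0.01 under Procymidone, -0.01 under Vinclozolin and -0.01 under Iprodione. The genes were collected with results of these data known, so these counts describe the list and are not independent evidence of its direction. With all 96 arrays in the fit 7 members fell under Procymidone and 7 under Vinclozolin, where 9 and 8 of all genes were called in either direction. With the cluster as a block 23 and 20 members fell, where 179 and 108 of all genes were called. Without Vinclozolin 3, 8 members fell under Vinclozolin, where 22 of all genes were called.

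The mean log2 level of this list fell into a low and a high group of arrays. It was 7.86, 8.01 and 7.97 with Procymidone, 8.06, 8.10 and 7.998 with Vinclozolin, 8.68, 8.68 and 8.66 with Iprodione, and 8.10, 8.12 and 8.15 with Bicalutamide. The R1881 arrays ranged from 8.64 to 8.79 with a median of 8.73, and the DMSO arrays from 7.92 to 7.996 with a median of 7.97. Procymidone arrays lay below, within and just above the DMSO range, Vinclozolin arrays lay above it by little, and Iprodione arrays lay within the R1881 range.

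**Figure D3:**
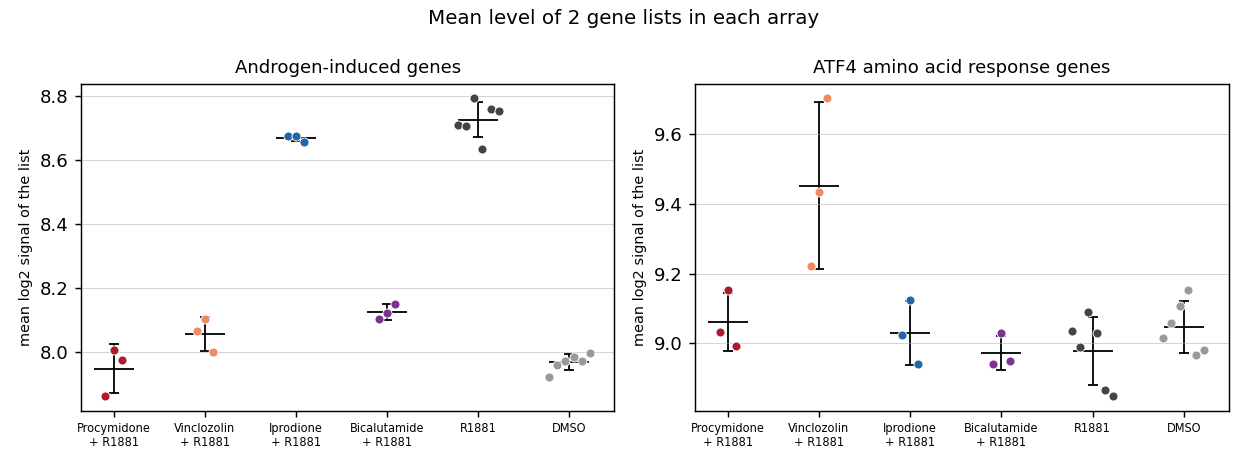
Mean log2 signal (y axis) of 42 androgen-induced genes (left) and 30 ATF4 amino acid response genes (right) in each of the 24 arrays, by treatment (x axis), with the mean and SD over arrays in black. On the left the Procymidone and Vinclozolin arrays lie between 7.86 and 8.10 and the Iprodione arrays between 8.66 and 8.68. On the right the 3 Vinclozolin arrays (9.22, 9.43 and 9.70) lie above all others.

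Of the 6 genes that rose under Procymidone (0.0323% of all genes), the largest difference was that of BAMBI, a pseudoreceptor that dampens TGF-beta signals. BAMBI read 11.82, 11.57 and 11.78 with Procymidone, 11.57, 11.49 and 11.60 with Vinclozolin, and 10.82, 10.48 and 10.96 with Iprodione, against 10.35 to 11.13 (median 10.93) with R1881 and 11.36 to 11.93 (median 11.44) with DMSO. Every Procymidone and Vinclozolin array was above every R1881 array. BAMBI rose by 0.89 under Procymidone (SE 0.16, adjusted p = 0.00871), and its difference under Vinclozolin was 0.73 (adjusted p = 0.0659). SYTL2, an effector of vesicle transport, rose by 0.71 under Procymidone (adjusted p = 0.00871) and by 0.76 under Vinclozolin (adjusted p = 0.00569), while dimmer SYTL2 probes differed by -0.02 and -0.05 under Procymidone. The secreted hormone STC1 rose by 0.67 under Procymidone, the cyclic AMP phosphodiesterase PDE4B by 0.65, the cell cycle phosphatase CDC25B by 0.61 and the lipid phosphatase-like protein PLPPR1 by 0.53. Under Vinclozolin these had differences of 0.51 for STC1, 0.50 for PDE4B, 0.38 for CDC25B and 0.25 for PLPPR1, none past the threshold in the reported fit. With single R1881 arrays left out, STC1 (adjusted p = 0.00481 without 3b), CDC25B (0.0338 without 2b) and BAMBI (0.0455 without 2 and 0.0457 without 3b) passed under Vinclozolin. The other PLPPR1 probe, a dim one, differed by -0.06 under Procymidone. Leaving out single Procymidone arrays ended the call of BAMBI (without 1 or 3), STC1 (1 or 3), SYTL2 (3), PDE4B (2 or 3) and PLPPR1 (1 or 2), and none ended that of CDC25B.

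Of the 8 genes that rose under Vinclozolin, 4 make, import or load amino acids: ASNS, SLC1A5, GARS1 and MARS1. None of these passed the test under Procymidone or Iprodione. The transcription factor ATF4 is made when amino acids run short or proteins misfold, and it turns on transporters, biosynthetic enzymes and tRNA ligases. ASNS, asparagine synthetase, read 10.57, 11.34 and 11.20 with Vinclozolin, against 9.37 to 10.25 (median 9.97) with R1881. It read 10.26, 10.41 and 9.70 with Procymidone and 9.96, 10.09 and 9.62 with Iprodione. Of the 3 compounds, Vinclozolin alone had all its arrays above the R1881 range, and ASNS rose by 1.16 under Vinclozolin (SE 0.22, 2.24-fold higher, adjusted p = 0.0227). The differences were 0.25 under Procymidone (95% interval -0.22 to 0.71) and 0.01 under Iprodione (-0.45 to 0.48). Within clusters the ASNS difference under Vinclozolin was 1.43 in A and 1.25 in B. The call was lost without R1881 2 (adjusted p = 0.0538), R1881 3 (0.0546), Vinclozolin 2 (0.19) or Vinclozolin 3 (0.301).

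GARS1, the ligase that loads glycine onto its tRNA, read 11.57, 11.66 and 12.22 with Vinclozolin, 10.68, 10.99 and 11.11 with Procymidone, and 11.09, 11.01 and 11.13 with Iprodione, against 10.68 to 11.08 (median 10.96) with R1881. SLC1A5, the glutamine transporter ASCT2, read 8.89, 8.87 and 9.25 with Vinclozolin, 8.35, 8.44 and 8.24 with Procymidone, and 7.95, 8.40 and 8.21 with Iprodione, against 7.90 to 8.51 (median 7.996) with R1881. For both genes the Vinclozolin arrays lay above all R1881 arrays, and array 3 was the highest. GARS1 rose by 0.90 (SE 0.12, adjusted p = 0.000805) and SLC1A5 by 0.91 (SE 0.13, adjusted p = 0.000715) under Vinclozolin. MARS1, the methionine tRNA ligase, read 10.04, 9.94 and 10.47 with Vinclozolin, against 9.04 to 9.37 with R1881, and rose by 0.90 (SE 0.12, adjusted p = 0.000429). The MARS1 arrays of Procymidone (9.49, 9.62 and 9.70) were also all above the R1881 arrays, at a difference of 0.35 that did not pass (adjusted p = 0.671). PCK2, mitochondrial phosphoenolpyruvate carboxykinase, read 9.27, 9.70 and 10.004 with Vinclozolin, against 8.68 to 9.10 with R1881, and rose by 0.77 (SE 0.13, adjusted p = 0.0063). The remaining genes that rose were MTHFD1L, a mitochondrial enzyme of folate metabolism (0.59, adjusted p = 0.014), GPAT3, an enzyme of glycerolipid synthesis (0.49, adjusted p = 0.014), and SYTL2. Within clusters A and B the Vinclozolin differences were 0.87 and 0.80 for GARS1, 1.17 and 0.69 for SLC1A5, and 0.98 and 0.70 for MARS1. The calls of GARS1, SLC1A5 and MARS1 held with each array left out, while PCK2 was lost without Vinclozolin 2 (0.0548) or 3 (0.135), MTHFD1L without any 1 Vinclozolin array (0.0607 to 0.207), and GPAT3 (0.301) and SYTL2 (0.126) without Vinclozolin 3.

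**Figure D4:**
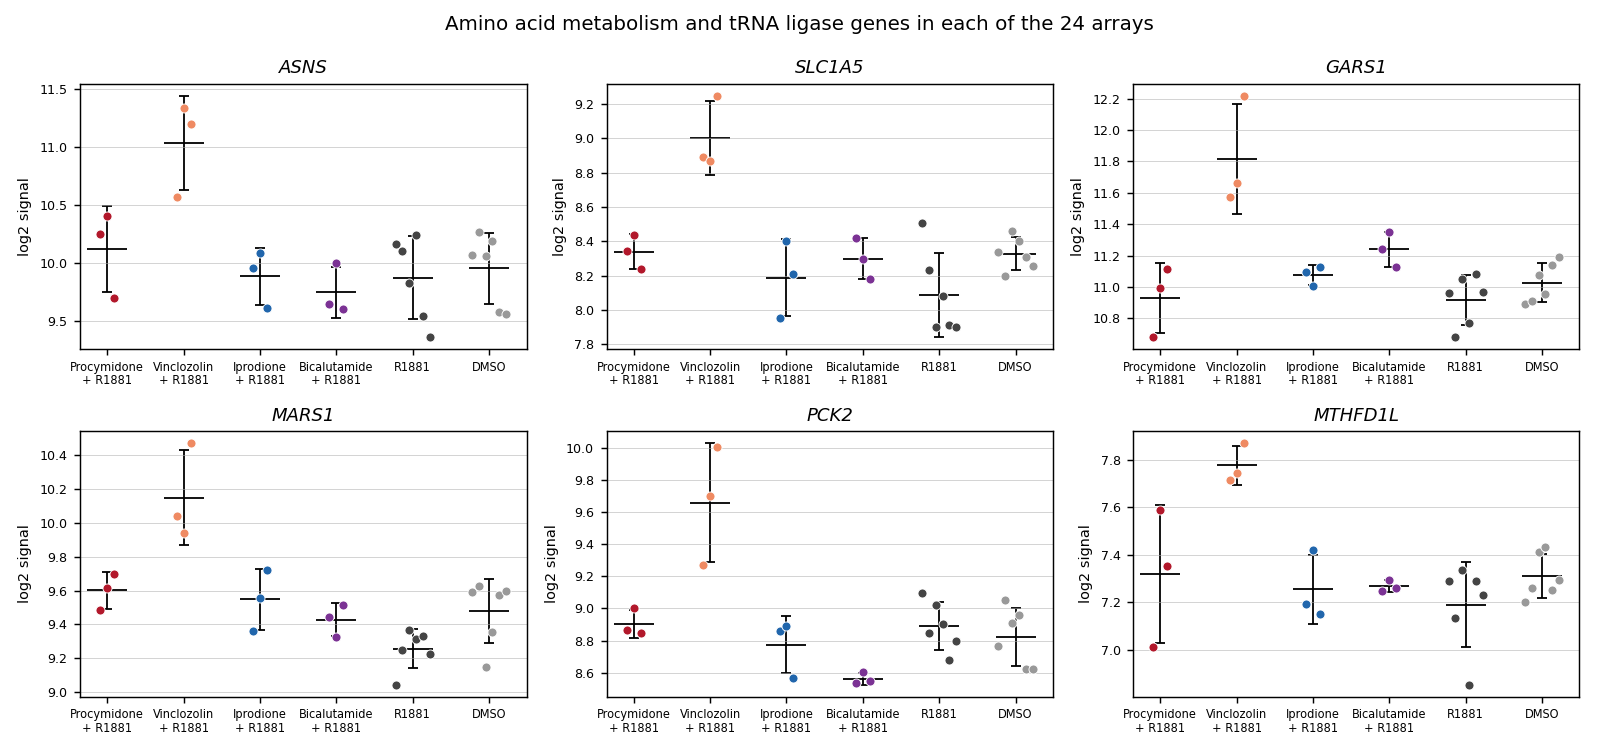
Log2 signal (y axis) of ASNS, SLC1A5, GARS1, MARS1, PCK2 and MTHFD1L in each of the 24 arrays, by treatment (x axis), with the mean and SD in black. The Vinclozolin arrays lie above every R1881 array in all 6 panels, for example at 11.57 to 12.22 against 10.68 to 11.08 for GARS1. The rule that named these genes required such separation, so it is no separate result.

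All 30 genes of the ATF4 list were measured, and 4 rose (ASNS, SLC1A5, GARS1 and PCK2) and 0 fell under Vinclozolin, where 0.0431% of all genes rose, with 28 differences above 0 and a median of 0.39. Under Procymidone 0 rose and 0 fell, with a median of 0.09, and under Iprodione 0 rose and 0 fell, with a median of 0.05. This list too was collected with results of these data known. Its counts therefore describe the list and are not independent evidence of its direction. The largest single difference of the list under Vinclozolin, picked after its values were seen, was that of the serine-synthesis enzyme PSPH at 1.52, which did not pass (SE 0.42, adjusted p = 0.31) except without Vinclozolin 2 (0.0264) and with the cluster as a block (0.0191). PSPH read 9.54, 8.13 and 10.50 with Vinclozolin, against 7.07 to 8.34 with R1881, so array 2 lay within the R1881 range. DDIT3, a stress-induced transcription factor, read 8.01, 8.15 and 9.03 with Vinclozolin, against 7.61 to 7.90 with R1881, a difference of 0.62 (adjusted p = 0.158, and 0.0369 without Vinclozolin 1). The mean level of the list was 9.22, 9.43 and 9.70 with Vinclozolin, against 8.85 to 9.09 (median 9.01) with R1881 and 8.97 to 9.15 (median 9.04) with DMSO. With all 96 arrays in the fit 0 of the 8 genes were called in limma (adjusted p from 0.0507 to 1.00) and 0 members of the list rose. The list count was 2 without Vinclozolin 3, where 22 of all genes were called in either direction. It was 11 with the cluster as a block, where 108 were.

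Promoters of genes that rose under Vinclozolin are shown because the binding letters of ATF4 occur in most of them. ATF4 binds composite elements whose core was searched as TGATGNAA on both strands, in RefSeq windows (GRCh38.p14) from 250 bases before to 50 bases after the gene start. The core was found in 5 of the 7 genes with a window (SYTL2 had none), against 3.62% of 35116 windows and 3.44% of 14043 tested genes. It was found in 1 of 26 genes that fell under Vinclozolin, in 0 of 4 that rose and in 2 of 43 that fell under Procymidone. The 5 windows follow, 5′ to 3′ on the gene's strand, with the core or its reverse complement in capitals.
ASNS (chr7:97872359-97872658, minus strand): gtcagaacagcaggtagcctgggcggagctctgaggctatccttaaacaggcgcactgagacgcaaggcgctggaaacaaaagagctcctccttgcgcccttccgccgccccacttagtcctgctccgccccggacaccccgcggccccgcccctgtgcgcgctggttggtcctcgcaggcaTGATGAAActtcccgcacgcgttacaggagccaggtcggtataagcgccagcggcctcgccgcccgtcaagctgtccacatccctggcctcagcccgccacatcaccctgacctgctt
SLC1A5 (chr19:46784765-46785064, minus strand): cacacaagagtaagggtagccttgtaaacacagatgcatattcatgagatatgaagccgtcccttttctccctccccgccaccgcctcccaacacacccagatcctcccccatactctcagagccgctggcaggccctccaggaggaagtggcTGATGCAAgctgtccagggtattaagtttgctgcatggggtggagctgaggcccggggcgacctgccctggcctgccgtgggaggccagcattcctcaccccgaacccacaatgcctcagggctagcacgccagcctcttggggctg
GARS1 (chr7:30594628-30594927, plus strand): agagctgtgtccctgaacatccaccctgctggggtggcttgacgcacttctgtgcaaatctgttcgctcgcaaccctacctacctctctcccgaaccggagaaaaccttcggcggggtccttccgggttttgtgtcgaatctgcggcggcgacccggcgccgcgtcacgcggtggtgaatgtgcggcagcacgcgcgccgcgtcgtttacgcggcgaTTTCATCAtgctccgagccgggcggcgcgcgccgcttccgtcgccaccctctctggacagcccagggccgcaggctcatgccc
MARS1 (chr12:57487818-57488117, plus strand): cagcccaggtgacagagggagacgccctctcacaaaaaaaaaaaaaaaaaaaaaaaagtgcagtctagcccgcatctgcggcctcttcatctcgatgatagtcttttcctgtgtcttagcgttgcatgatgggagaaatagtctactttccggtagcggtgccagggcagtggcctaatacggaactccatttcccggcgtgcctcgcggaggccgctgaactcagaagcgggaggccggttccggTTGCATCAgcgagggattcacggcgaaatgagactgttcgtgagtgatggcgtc
MTHFD1L (chr6:150866236-150866535, plus strand): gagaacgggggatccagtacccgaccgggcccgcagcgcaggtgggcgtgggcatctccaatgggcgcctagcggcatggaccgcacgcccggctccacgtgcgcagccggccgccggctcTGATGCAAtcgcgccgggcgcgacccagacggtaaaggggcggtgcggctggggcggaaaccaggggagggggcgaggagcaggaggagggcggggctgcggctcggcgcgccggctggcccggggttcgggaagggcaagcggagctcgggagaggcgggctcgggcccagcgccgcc
Its first base lay 68 bases before the start in ASNS, 97 in SLC1A5, 33 in GARS1, 4 in MARS1 and 129 in MTHFD1L. Such a match describes these letters and is no evidence of binding. The half-site AGAACA of the androgen receptor, searched on both strands, was in 7 of 43 windows of genes that fell under Procymidone and in 4 of 26 of those that fell under Vinclozolin, against 14.8% of all windows. The full palindrome, AGAACA with TGTTCT after a gap of NNN, was in 0 of these. It was in 1 of 35116 windows and in 0 of 14043 tested genes, so its absence here tells nothing about the genes that fell.

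Under Iprodione no androgen-responsive gene passed against R1881 alone, which does not show that there was no effect. Of the 42 androgen-induced genes, 28 had a difference below 0 and 14 above 0. Their median was -0.07 and the lowest was -0.53, that of KLK4. Many androgen-responsive genes stood far above DMSO under Iprodione. Against DMSO, limma called 33 genes higher and 3 lower under Iprodione (0.194% of genes in all and 0.0162% for the lower ones), led by SGK1 (2.74, adjusted p = 1.98e-11), C1orf116 (2.23), NPPC (1.93), STEAP1 (1.74) and FKBP5 (1.66), with BAMBI (-0.80), STC1 (-0.68) and SYTL2 (-0.66) lower. Of the 42 androgen-induced genes 13 rose, where 0.178% of all genes rose. The list was collected with results of these data known, so this count describes the list only. Against DMSO, 0 genes were called under Procymidone (0% of genes). There 264 genes had an unadjusted p under 0.05, fewer than chance alone would give. Under Vinclozolin 2 were called against DMSO (0.0108%), GARS1 (0.79) and PCK2 (0.83), both at adjusted p = 0.0345. Both were lost without Vinclozolin 2 or 3, and without any 1 DMSO array except 1b for PCK2, the highest adjusted p being 0.658 for both GARS1 and PCK2 without Vinclozolin 3. R1881 alone against DMSO raised 72 genes and lowered 13 (0.458%), and the DMSO arrays are shared by all 4 of these comparisons. Without Iprodione 1 the count under Iprodione was 21, and without Iprodione 2 it was 22. The calls of C1orf116, STEAP1, BAMBI, STC1 and SYTL2 against DMSO were each lost without 1 or more single Iprodione arrays, and those of SGK1, NPPC and FKBP5 were not.

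The xenobiotic-responsive genes gave no calls. CYP1A1, a target of the aryl hydrocarbon receptor that oxidises aromatic chemicals, read 6.89, 7.54 and 7.09 with Procymidone, 6.95, 7.49 and 6.86 with Vinclozolin, and 8.31, 8.69 and 7.70 with Iprodione, against 7.24 to 7.84 (median 7.59) with R1881. Iprodione 1 and 2 lay above the R1881 range and Iprodione 3 inside it, and the difference of 0.69 (SE 0.21, unadjusted p = 0.00339) had an adjusted p of 1.00. TIPARP, another target of that receptor, read 7.94, 7.86 and 8.07 with Procymidone and 7.999, 7.89 and 8.11 with Vinclozolin, against 8.18 to 9.27 with R1881, and its differences of -0.89 and -0.84 did not pass (adjusted p = 0.151 and 0.204). R1881 alone raised 1 of the 11 measured genes of the aryl hydrocarbon receptor list against DMSO, where 0.388% of all genes rose. Whether the TIPARP differences reflect that receptor was not tested. Of 30 lists, 26 held no called gene under Procymidone, 24 under Vinclozolin and 30 under Iprodione. Those without a call in any of the 3 comparisons included the aryl hydrocarbon receptor (11 genes measured), PXR and CAR (14), NRF2 (19), heat shock (18), endoplasmic reticulum folding (18), p53 (19), cholesterol synthesis (20) and mitotic division (26) lists. Of 16 measured glucocorticoid-response genes, SGK1, FKBP5, CEBPD and KLF9 fell under Procymidone, where 0.264% of all genes fell, and SGK1, FKBP5 and CEBPD under Vinclozolin, where 0.167% fell.

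The 3 pairs of dicarboximides were compared directly at the same dose and time, with p-values adjusted over all genes of the 3 pairs together. Procymidone against Iprodione gave 3 higher and 23 lower genes (0.14% in all, 0.0162% for the higher ones), and Vinclozolin against Iprodione 3 higher and 13 lower (0.0862% in all, 0.0162% for the higher ones). SGK1 differed from Iprodione by -2.93 under Procymidone (95% interval -3.22 to -2.64, adjusted p = 2.53e-10), and by -2.53 under Vinclozolin (-2.82 to -2.25, adjusted p = 1.96e-09). FKBP5 differed from Iprodione by -1.93 under Procymidone and -1.73 under Vinclozolin, and UGT2B11 by -1.60 and -1.56. KLK2 passed for Procymidone (-1.02, adjusted p = 0.0296), and its difference for Vinclozolin was -0.92 (adjusted p = 0.0638). On the higher side, BAMBI (0.97), STC1 (0.81) and SYTL2 (0.77) passed for Procymidone, and PCK2 (0.88), SLC1A5 (0.82) and SYTL2 (0.81) for Vinclozolin. For CYP1A1 the differences from Iprodione were -1.06 under Procymidone (adjusted p = 0.225) and -1.13 under Vinclozolin (adjusted p = 0.139). These counts moved when single arrays of a pair were left out, between 10 (without Procymidone 1) and 18 for Procymidone against Iprodione and between 7 (without Vinclozolin 3 or Iprodione 1) and 13 for Vinclozolin against Iprodione. Each of the higher calls was lost without 1 or more single arrays, and so was that of STEAP1 for Procymidone, while those of SGK1, FKBP5 and UGT2B11 were not. The compounds compared here differ in the imide ring, and Iprodione also in its side chain, as described above. Whether structure bears on these differences was not tested.

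Procymidone and Vinclozolin differed past the threshold in 1 gene (0.00538%). That count was 0 with all 96 arrays, with averaged controls or with p adjusted within the pair, and 5 with the cluster as a block. GARS1 was lower with Procymidone, at 10.93 ± 0.22, against 11.82 ± 0.35 with Vinclozolin (SD, n = 3 each), a difference of -0.89 (SE 0.14, adjusted p = 0.015). The call was lost without Vinclozolin 3 (adjusted p = 0.068) or Procymidone 1 (0.123). PCK2 (-0.75, adjusted p = 0.0717), SLC1A5 (-0.66, 0.168), MARS1 (-0.55, 0.41) and ASNS (-0.91, 0.914) did not pass. For the androgen-responsive genes the differences and their 95% intervals were -0.40 (-0.68 to -0.11) for SGK1, -0.20 (-0.54 to 0.14) for FKBP5, -0.09 (-0.47 to 0.28) for KLK2, -0.17 (-0.56 to 0.23) for NPPC and 0.01 (-0.18 to 0.20) for DIO2. Of the 42 androgen-induced genes 0 passed, with a median difference of -0.08. These intervals bound the difference and do not show that both compounds act alike, and that of SGK1 leaves out 0 before adjustment over genes (adjusted p = 1.00).

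Set against Bicalutamide at the same dose, Procymidone gave 0 called genes (0%, lowest adjusted p = 0.154 for SGK1), and 5 with the cluster as a block. In the reported fit 818 genes had an unadjusted p under 0.05, fewer than chance alone would give. The SGK1 arrays of Procymidone (8.53 to 8.88) all lay below those of Bicalutamide (9.26 to 9.56), a difference of -0.71 (95% interval -0.996 to -0.422). Vinclozolin gave 1 called gene (0.00538%), PCK2, which read 9.27, 9.70 and 10.004 with Vinclozolin, against 8.53, 8.61 and 8.55 with Bicalutamide, a rise of 1.09 (SE 0.15, adjusted p = 0.00335). That count was 0 with all 96 arrays and 4 with the cluster as a block. Iprodione gave 10 higher and 1 lower (0.0592%), with SGK1 at 2.22, UGT2B11 at 1.55, DIO2 at 1.49, KCNK13 at 1.47, NPPC at 1.45 and FKBP5 at 1.39. The lower gene was ABCG1, a cholesterol exporter, which read 7.16, 7.24 and 7.18 with Iprodione, against 7.90, 8.19 and 8.13 with Bicalutamide (-0.88, SE 0.13, adjusted p = 0.00621). ABCG1 read 7.55, 7.69 and 7.80 with Procymidone, 7.26, 7.52 and 7.28 with Vinclozolin, and 7.15 to 7.42 with R1881, so the Bicalutamide arrays were the highest of these groups. These 3 pairs share the Bicalutamide arrays and were adjusted together, and without Iprodione 1 the count for Iprodione was 7. The call of ABCG1 was lost without Iprodione 1 (adjusted p = 0.0575), Bicalutamide 2 (0.0886) or Bicalutamide 3 (0.0734).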

How the data were processed

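RNA of LAPC4 cells was measured on single-colour Illumina HT-12 version 4 bead arrays, 24 of which entered the main fit (Procymidone, Vinclozolin, Iprodione and Bicalutamide with 3 arrays each, R1881 and DMSO with 6 each). The authors deposited log2 signals, and the medians of all arrays were 6.72, so they were already scaled between arrays. Per the submitters' processing notes the arrays were read on an iScan (3.3.28) and processed with limma. The background correction and the normalization method are not given in the sources used here.

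Of 48107 probes, 43820 exceeded the 50th percentile of their array in at least 3 arrays and were kept. GEO's probe annotation gave 1 symbol for 30113 probes, several for 8 and none for 17986. The brightest kept probe stood for each of 18571 genes. Missing values numbered 191 over the series, 3 of them in tested genes of the fit, and limma left these out. Linear models were fitted with limma (version 3.58.1, R 4.3.3) on the deposited log2 values over all 6 groups, with eBayes and Benjamini-Hochberg adjustment at 0.05 over all genes of a comparison. The 3 dicarboximide pairs were adjusted together, and so were the 3 pairs with Bicalutamide. The fit was tested on simulated data.

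Genes were named by rule: the 10 largest rises and falls among called genes whose arrays did not overlap (6 for pairs, 5 against DMSO), called genes of 30 lists, and 25 fixed genes, of which 23 were measured. The members and lists were chosen with earlier results of these data known. Exceptions, given because a sentence turns on them, were chosen after their values were seen. Some genes are not reported here. Alternatives were all 96 arrays, no filter, the mean of probes, cyclic loess, the cluster or the replicate number as a block, averaged controls, and leaving out each of the 24 arrays in turn. Figures were drawn with matplotlib 3.10.9 under Python 3.11.15.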

Additional observations from a re-analysis of the deposited data

Results flagged for a closer look

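In 3 of 88 gene and group combinations over 44 genes, 1 control array stood far from the other 5 of its group, and chance alone marks about 1 in 20. GPAT3 read 7.34 in DMSO array 1b, against 7.54 to 7.65 in the other DMSO arrays. HPGD read 6.74 in DMSO array 1, against 6.88 to 6.96 in the others. STC1 read 9.07 in R1881 array 3b, against 8.43 to 8.62 in the other R1881 arrays, and the Vinclozolin arrays of STC1 overlap the R1881 arrays only through it.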

How the results depend on the processing

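No call of a named gene changed direction under the alternatives run, and the counts moved with the spread the fit used. With all 96 arrays the counts were 9 for Procymidone and 8 for Vinclozolin against R1881, 0 for Vinclozolin and 6 for Iprodione against DMSO, 5 and 4 for Procymidone and Vinclozolin against Iprodione, 0 for Procymidone against Vinclozolin, 0 and 2 for Vinclozolin and Iprodione against Bicalutamide, and 23 for R1881 against DMSO. With the 5 arrays under a profile correlation of 0.9 left out of the series and the cluster as a block they were 120, 86, 9, 57, 44, 34, 5, 4, 24 and 157 in the same order, and 2 for Procymidone against Bicalutamide. With the cluster as a block, chosen after seeing the data, they were 179, 108, 4, 83, 71, 49, 5, 4, 32 and 238, with 5 for Procymidone against Bicalutamide and 1 for Iprodione against R1881. With the replicate block they were 122, 101, 4, 61, 47, 39, 5, 4, 27 and 176, with 4 for Procymidone against Bicalutamide. The design text says that experiments ran on separate days, but not that a number marks a day, so the numbers are not known to pair the samples. In their deviations from group means, same-numbered arrays of different groups correlated between -0.71 and 0.91 (median 0.62, 62 of 78 pairs above 0.1), and differently numbered ones between -0.94 and 0.90 (median -0.53, 48 of 156). The closest array of another group had the same number for 15 of 24 arrays. With same-numbered controls averaged they were 23 and 20 against R1881, 0 and 18 against DMSO, 14 and 9 against Iprodione, 0 for Procymidone against Vinclozolin and 21 for R1881 against DMSO. Without R1881 2 and Iprodione 1, also chosen after seeing the data, they were 0 and 19 for Vinclozolin and Iprodione against DMSO, 10 and 7 against Iprodione, and 7 for Iprodione against Bicalutamide. Cyclic loess gave 4 for Vinclozolin against DMSO, 2 for Procymidone against Vinclozolin and 3 for Vinclozolin against Bicalutamide. The mean of probes gave 2 for Procymidone against Vinclozolin and moved the androgen-induced list level to -0.65 for Procymidone and -0.55 for Vinclozolin, from -0.78 and -0.67 as reported. Adjusting within each pair gave 0 for Procymidone against Vinclozolin. The cause of these shifts was not tested.

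Leaving out 1 array at a time gave 29 to 55 genes for Procymidone, 22 to 46 for Vinclozolin and 0 to 0 for Iprodione against R1881, 0 to 0, 0 to 2 and 21 to 33 against DMSO, 10 to 18 and 7 to 13 for Procymidone and Vinclozolin against Iprodione, 0 to 2 for Procymidone against Vinclozolin, 0 to 0, 1 to 1 and 7 to 11 for Procymidone, Vinclozolin and Iprodione against Bicalutamide, and 67 to 93 for R1881 against DMSO. The list level ranged from -0.81 to -0.74 for Procymidone, -0.70 to -0.64 for Vinclozolin and -0.07 to -0.04 for Iprodione.

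Uncalled differences near 0 changed sign under some settings. Under Procymidone, GARS1 was -0.00951 with loess and -0.0804 to 0.136 with 1 array left out, and PCK2 was -0.000426 with the mean of probes, -0.00265 with loess and -0.0348 to 0.0555 with 1 array left out. KLK3 under Vinclozolin was -0.0861 to 0.0314 with 1 array left out. Under Iprodione, NPPC was -0.051 to 0.165 with 1 array left out. DIO2 under Iprodione was -0.0456 with the mean of probes, -0.00594 with loess and -0.0687 to 0.118 with 1 array left out. UGT2B11 under Iprodione was 0.0212 without R1881 2 and Iprodione 1. ASNS under Iprodione was -0.0473 with the mean of probes, -0.00984 with loess, -0.0309 without R1881 2 and Iprodione 1 and -0.0894 to 0.148 with 1 array left out.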
